A study of Mus musculus with 2 samples.

Results

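The authors' table of gene counts holds 714 loci that carry no Ensembl identifier, of 55246 loci in all, and these added loci are described here across a WT library and an Exon2KO library. They were taken by their identifiers alone, as the rows whose name marks a locus outside the Ensembl annotation, and no read count entered the choice. Each is called below by the number in that identifier. Both libraries were made from regulatory T (Treg) cells, the suppressive CD4 lineage specified by the transcription factor Foxp3, of the colon lamina propria of female mice. WT is wild type, and Exon2KO carries Foxp3∆2, a Foxp3 allele without exon 2. There is 1 library per genotype, and the labels give neither the number of mice behind it nor age nor sorting scheme. No difference below therefore has a replicate check.

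Read assembly can find transcribed stretches that an annotation lacks. Such stretches include long noncoding RNAs, transcripts that start upstream of a promoter, read-through past the end of a gene, extended first or last exons, and copies of mobile elements such as L1. Long noncoding RNAs often have low, cell type restricted levels, and some lie beside genes that define a lymphocyte lineage. Treg cells of the colon include cells that express the transcription factor Gata3 and the IL-33 receptor Il1rl1, and cells that express Maf and Il10.

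The WT library had 16281133 reads assigned to loci and the Exon2KO library 15412425. Intervals and limits cover counting error only, and a locus at 0 reads could hold up to 1.84e-05% of the WT reads or 1.95e-05% of the Exon2KO reads (3 reads). Foxp3 had 6991 WT reads and 20946 Exon2KO reads, with a log2 ratio of 1.56, and a count per gene does not show whether exon 2 is absent. All 7 T cell markers examined had reads and summed to 0.403% of WT reads and 0.371% of Exon2KO reads, and all 5 Treg markers, Foxp3 among them, to 0.812% and 1.09%. The Treg markers did not all rise: the fewest reads of any of them were 2968 in WT and 440 in Exon2KO. Ctla4 alone gave 79358 and 132229 of the Treg marker reads. All 5 epithelial markers summed to 0.0072% and 0.0257% of reads, all 6 B and plasma cell markers to 6.0% and 5.51%, all 5 myeloid markers to 0.0031% and 0.0043%, and all 6 stromal markers to 0.0061% and 0.0059%. The part of these cells in the results below was not tested. In bulk RNA, fewer cells of a type and less RNA per cell cannot be told apart.

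Promoter windows show the sequence at RefSeq starts in or beside some of the added loci. RefSeq, a second gene catalogue, places a transcription start on the same strand in or within 250 bases of 127 added loci. The windows printed here run from 250 bases before to 50 bases after such a start, on build GRCm38.p6, and belong to called loci with at least 50 reads in 1 library. They are the windows of all 5 such loci with lower reads in Exon2KO whose RefSeq start lies within 250 bases of the 5′ end of the locus, then that of locus 361, and last that of 1 locus with higher reads. Capitals mark 4 motifs, searched on both strands, none of which contains another. For forkhead factors such as Foxp3 the letters were GTAAACA. The family that includes Gata3 was searched with AGATAA. Runx factors, partners of Foxp3, were searched with TGTGGT, and the box of many core promoters with TATAAA. The windows are chr11:23818887-23819186 on the minus strand for locus 125 (RefSeq Gm39612), chr5:146857606-146857905 on the plus strand for locus 520 (Gm38748), chr3:101296559-101296858 on the minus strand for locus 425 (Gm32803), chr19:29067051-29067350 on the plus strand for locus 335 (Gm9895), chr4:32160854-32161153 on the minus strand for locus 469 (Gm52717), chr2:8946686-8946985 on the plus strand for locus 361 (Gm30957) and chr3:144232197-144232496 on the minus strand for locus 430 (Gm46828).
Gm39612 (locus 125): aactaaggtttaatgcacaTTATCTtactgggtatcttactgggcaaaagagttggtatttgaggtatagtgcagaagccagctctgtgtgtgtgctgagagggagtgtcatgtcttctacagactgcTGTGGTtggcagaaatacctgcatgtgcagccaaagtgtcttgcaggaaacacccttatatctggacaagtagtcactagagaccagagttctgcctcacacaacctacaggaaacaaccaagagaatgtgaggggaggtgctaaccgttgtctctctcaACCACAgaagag
Gm38748 (locus 520): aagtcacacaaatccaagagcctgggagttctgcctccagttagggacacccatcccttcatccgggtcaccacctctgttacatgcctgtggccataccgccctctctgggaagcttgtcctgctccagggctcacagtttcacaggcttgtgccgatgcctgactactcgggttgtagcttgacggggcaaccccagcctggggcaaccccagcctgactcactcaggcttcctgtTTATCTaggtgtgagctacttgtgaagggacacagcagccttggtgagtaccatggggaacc
Gm32803 (locus 425): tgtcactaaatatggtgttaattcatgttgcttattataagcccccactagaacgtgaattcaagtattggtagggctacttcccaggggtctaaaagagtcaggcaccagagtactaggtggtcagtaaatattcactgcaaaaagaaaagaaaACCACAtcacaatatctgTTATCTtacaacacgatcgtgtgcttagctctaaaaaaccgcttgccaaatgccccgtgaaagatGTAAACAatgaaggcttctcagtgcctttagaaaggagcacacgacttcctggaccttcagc
Gm9895 (locus 335): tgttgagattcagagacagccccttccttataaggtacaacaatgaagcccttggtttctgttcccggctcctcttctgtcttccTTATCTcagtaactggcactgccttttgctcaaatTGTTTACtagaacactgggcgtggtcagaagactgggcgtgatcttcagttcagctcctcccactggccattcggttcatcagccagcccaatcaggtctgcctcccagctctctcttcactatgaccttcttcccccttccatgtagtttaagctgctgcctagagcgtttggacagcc
Gm52717 (locus 469): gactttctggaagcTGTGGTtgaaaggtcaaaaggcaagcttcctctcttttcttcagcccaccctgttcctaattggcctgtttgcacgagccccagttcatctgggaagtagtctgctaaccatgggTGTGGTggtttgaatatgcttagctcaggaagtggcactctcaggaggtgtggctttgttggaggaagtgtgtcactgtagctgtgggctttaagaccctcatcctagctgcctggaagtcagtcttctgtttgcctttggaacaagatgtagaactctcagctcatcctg
Gm30957 (locus 361): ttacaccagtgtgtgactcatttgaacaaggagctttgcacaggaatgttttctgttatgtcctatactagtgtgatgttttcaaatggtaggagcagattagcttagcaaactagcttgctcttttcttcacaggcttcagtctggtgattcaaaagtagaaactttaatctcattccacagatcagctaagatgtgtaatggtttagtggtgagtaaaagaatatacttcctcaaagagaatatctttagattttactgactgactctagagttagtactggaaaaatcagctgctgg
Gm46828 (locus 430): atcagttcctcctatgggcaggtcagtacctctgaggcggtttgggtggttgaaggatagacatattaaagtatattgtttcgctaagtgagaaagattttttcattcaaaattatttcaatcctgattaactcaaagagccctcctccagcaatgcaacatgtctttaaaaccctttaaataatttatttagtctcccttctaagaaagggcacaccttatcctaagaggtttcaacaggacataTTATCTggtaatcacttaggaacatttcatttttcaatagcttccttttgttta

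Such windows existed for 10 called loci with at least 50 reads in 1 library, and in 6 of them the RefSeq start lay within 250 bases of the 5′ end of the locus. In the others it lay farther inside the locus, 644 bases for locus 361, 980 for locus 20, 7131 for locus 154 and 113253 for locus 44. Of these 10 windows, 2 held the forkhead letters, 6 the GATA letters, 3 the Runx letters and 1 the TATA letters. Of all 32851 RefSeq promoter windows of this length, 3.65% held the forkhead letters, 11.2% the GATA letters, 16.8% the Runx letters and 13.6% the TATA letters. The 10 windows were chosen by call, the comparison set was not matched to them in base composition or gene type, and enrichment was not tested. A match describes letters only, and it was not tested whether any factor binds there.

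Most added loci were short, unspliced and close to a gene. Their summed exon length ran from 206 to 16053 bases with a median of 1274, and the median of Ensembl lincRNA loci in the table was 1038. In 478 loci the length equalled the genomic span, so that they form a single block, and in 236 the span was longer than the length, as in a spliced transcript. The plus strand held 397 and the minus strand 317. Chromosome 11 held 65, chromosome 4 held 61, chromosome 5 held 51, X held 20 and Y held 2, and 7 lay on unplaced scaffolds.

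No added locus overlapped an Ensembl locus of the table. The nearest Ensembl gene, found for 713 of them, was a median of 3635 bases away (quartiles 409 and 11209), and in 484 cases it was protein coding. Within 5 kb of the nearest gene lay 417 loci. Of those, 174 were upstream on the same strand at a median gap of 192.5 bases, and 82.8% of that set were single blocks. A further 97 were upstream on the opposite strand, 56 downstream on the same strand and 90 downstream on the opposite strand. Whether counting used the strand is not given in the sources used here, so reads of overlapping loci on opposite strands cannot be told apart.

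RefSeq knows some of these loci. A RefSeq gene overlapped 212 of them, a RefSeq long noncoding RNA 120, and in 140 cases the RefSeq symbol was absent from the table. In 65 cases the locus lay in, or touched, the RefSeq span of its own nearest gene, so that RefSeq draws that gene longer than Ensembl does. GENCODE M21 genes overlapped 21. The remaining 502 overlapped no RefSeq gene.

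Among the 714 loci, 45 had 0 reads in both libraries, 42 had 1 to 9 reads and 627 had at least 10, the minimum for testing. Nearly all zero counts lay in antisense pairs. Of the 45 loci at 0 reads, 43 were covered over at least 84.0% of their span by another added locus on the opposite strand. Not every such locus was at 0: of 68 covered over at least 80% in this way, 25 had reads. Of the 608 loci that overlapped no other added locus, 2 had 0 reads. The tested loci had a median of 93 reads over both libraries, and 22 had 1000 or more. Per length, in the authors' deposited FPKM (reads scaled to length and library size), their median level was 1.82 in WT and 2.13 in Exon2KO, against 0.815 and 0.802 for lincRNA loci and 3.13 and 3.18 for protein-coding genes, each among loci with at least 10 reads.

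The added loci together took a larger share of the Exon2KO library than of the WT library. They held 67143 reads in WT, 0.412% of the total (95% Wilson interval 0.409 to 0.416), and 81726 in Exon2KO, 0.530% (0.527 to 0.534). Locus 289 alone gave 12.2% of the added loci's reads in WT and 12.4% in Exon2KO. Without it the shares were 0.362% and 0.465%. Ensembl TEC loci, a provisional class of mostly unspliced loci, took 0.156% and 0.209%, and lincRNA loci took 0.674% and 0.901%.

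Individually, 126 of the 627 tested loci were higher in Exon2KO (20.1%) and 63 were lower (10.05%), and 438 were not called. Over all 17363 loci of the table with at least 10 reads, 7.2% were called higher and 6.61% lower, 13.8% in all, against 30.1% of the added loci. A call needs a 2-fold ratio and an adjusted p below 0.05 in an exact binomial test of the reads of these 2 libraries, so it speaks of the libraries, not of the genotypes. Every log2 ratio sets Exon2KO over WT after TMM scaling of library size. The median log2 ratio of the added loci was 0.30 (quartiles -0.32 and 0.88), and over all loci tested it was 0.0035. The ratio was above 0 in 399 added loci, 63.6%, and in 50.3% of all loci tested. In the authors' deposited table, 83 added loci had an adjusted p below 0.05, 48 higher and 35 lower. All 83 are among the calls here, which rest on the same 2 libraries, so this overlap is no independent check. Assuming a spread between samples (a biological coefficient of variation, BCV, of 0.2) instead of none left 52 higher and 35 lower, and a BCV of 0.4 left 5 and 12. The shares of all loci under the authors' values and under these assumed spreads are not given here. Whether the added loci still exceed all loci there was not examined.

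**Figure D1:**
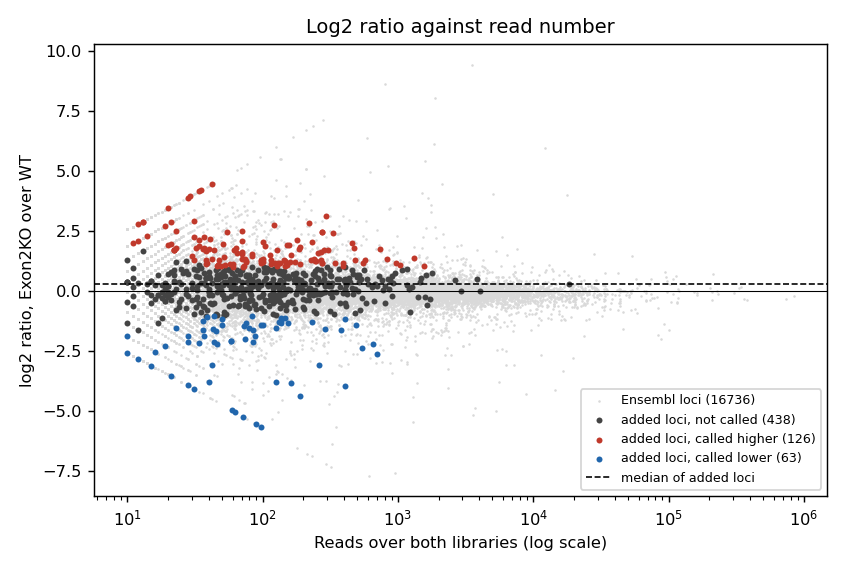
Log2 ratio of reads, Exon2KO over WT, against reads over both libraries (log scale) for the 627 tested added loci (dark dots, red where called higher, blue where called lower) and the 16736 tested Ensembl loci (grey). The dashed line is the median of the added loci, 0.30, which lies above the solid line at 0.

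The added loci had the larger share of calls and the higher median in each of 4 ranges of read number. Among loci with 200 to 999 reads, 26.4% of the added loci and 8.23% of the Ensembl loci were called, with medians of 0.32 and 0.0026. Among loci with 10 to 49 reads the shares were 36.2% and 22.4%, with medians of 0.31 and 0.14. Some Ensembl classes had values nearer to the added loci. TEC loci had a median log2 ratio of 0.33 with 20.4% called and sense_intronic loci 0.35 with 18.9% called. The lincRNA loci had a median of 0.10 with 22.3% called, and protein-coding genes -0.02 with 12.3% called. The differences between these classes were not tested. Single-block added loci had a median of 0.36, with 95 higher and 26 lower, and those with a span longer than their length 0.16, with 31 higher and 37 lower.

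**Figure D2:**
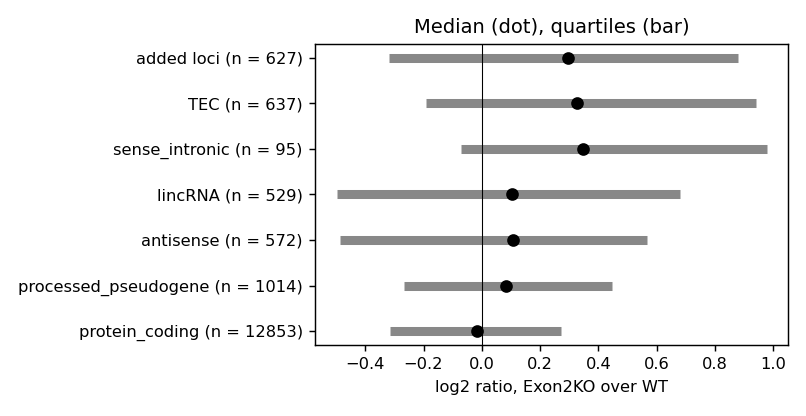
Median (dot) and lower to upper quartile (bar) of the log2 ratio, Exon2KO over WT, by class of locus, with the number of tested loci of each class on the vertical axis. The added loci, TEC and sense_intronic loci have medians of 0.30, 0.33 and 0.35, and protein-coding genes one of -0.02.

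Among the 10 loci with the most reads none passed 2-fold, and their log2 ratios ran from -0.57 to 0.76. Locus 289 (chr17:21466748-21480895, minus strand), which overlaps the RefSeq long noncoding RNA Gm52290 and lies 1160 bases from the end of the zinc finger gene Zfp51, had 8194 WT reads and 10134 Exon2KO reads, with a log2 ratio of 0.28 (95% interval 0.24 to 0.32). Locus 176 (chr13:5860306-5861230, plus strand) sits 251 bases upstream of Klf6, a zinc finger transcription factor, and had 1982 and 2042 reads, a log2 ratio of 0.02 (-0.07 to 0.11). Locus 190 (chr13:113793469-113794409, plus strand), 95 bases upstream of the small GTPase gene Arl15, had 1437 and 1489 reads, against 326 and 331 for Arl15. Both upstream loci were thus level between the libraries within their counting intervals.

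Locus 619 (chr7:125591239-125599678, minus strand) lies upstream of Il21r, the IL-21 receptor gene, on the opposite strand, and had a ratio of the opposite sign. It had 1092 WT reads and 1530 Exon2KO reads, with a log2 ratio of 0.46 (0.35 to 0.57), while Il21r had -0.51, and neither passed 2-fold. The pair's ratio of ratios, the change of the locus over that of the gene on the log2 scale, was 0.97 (0.86 to 1.09), short of 2-fold as well. It adds 0.5 to each count where log2 ratios carry a prior count of 2, so at low counts it departs from the difference of the printed ratios. Locus 331 (chr19:8019555-8034083), whose product the authors describe with domains of mobile elements, had 1567 and 2295 reads, a log2 ratio of 0.52. Locus 356 (chr19:53547227-53561989), beyond the end of the ERK phosphatase gene Dusp5, had 614 and 991 reads, 0.66, where Dusp5 had -0.08. Locus 305, beyond the end of the cAMP-responsive factor gene Crem, had 658 and 1135 reads, 0.76, where Crem had 0.13. Lower in Exon2KO by less than 2-fold were locus 295 (973 and 667 reads, -0.57), which starts 76 bases from the valyl-tRNA synthetase gene Vars at -0.67, locus 536 (958 and 769 reads, -0.34) beside the calcium channel gene Orai1 at -0.21, and locus 250 (853 and 739 reads, -0.23).

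Among called loci with at least 100 reads in 1 library, the lowest ratios belonged to loci with a spliced shape. These 8 ran from -4.37 to -2.22, and the span was longer than the exon length in each. With fewer reads, single-block loci 32 and 10 had lower ratios, -5.22 and -4.94, each with 0 reads in Exon2KO. Locus 174 (chr12:110373416-110393782, minus strand) had 181 WT reads and 7 Exon2KO reads, with a log2 ratio of -4.37 (-6.05 to -3.65), and its nearest gene, 47.7 kb away, had 0 reads. Locus 552 (chr6:49590512-49629894, plus strand) had 381 and 23 reads, -3.96 (-4.75 to -3.47), beside a pseudogene at 0 reads. Locus 568 (chr6:15561017-15568667, minus strand) had 233 and 26 reads, -3.09 (-3.83 to -2.60), again with a nearest gene at 0 reads. In each of these 3 the WT library held nearly all the reads.

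Locus 361 (chr2:8946292-8975936, plus strand) coincides with the RefSeq long noncoding RNA Gm30957, whose promoter is printed above. It had 607 WT reads and 98 Exon2KO reads, with a log2 ratio of -2.63 (-2.98 to -2.35). Gata3, the transcription factor of one colonic Treg subset, lies 881 kb away on the same chromosome, a comparison chosen after its values were seen, and had 5347 and 954 reads, -2.51 (-2.61 to -2.41). The ratio of ratios of that pair was -0.14 (-0.46 to 0.18). Against its nearest gene, Gm13217, 65.2 kb away with 19 and 11 reads, the ratio of ratios was -1.86 (-2.96 to -0.77), and that pair differed. Whether the 2 loci are linked was not tested.

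Locus 154 (chr12:54343693-54355141, plus strand), over the RefSeq long noncoding RNA Gm35895, had 152 and 9 reads, a log2 ratio of -3.83 (-5.26 to -3.14). Egln3, a prolyl hydroxylase of hypoxia-inducible factors, lies 139.8 kb away and had -1.14, a comparison also chosen after its values were seen. The nearest gene of locus 154, Gm47552, 26677 bases away, had 7 and 3 reads. That pair had a ratio of ratios of -2.91 (-4.97 to -0.84) and did not pass the test of a difference. Locus 520 (chr5:146857784-146860014, plus strand) starts within 72 bases of the RefSeq start of Gm38748 and had 119 and 7 reads, -3.77 (-5.46 to -3.03). Rasl11a, the small GTPase gene 10.1 kb from it, was level at 380 and 365 reads, so the ratio of ratios was -3.94 (-5.02 to -2.85). Locus 253 (chr16:31927017-31932721, plus strand) lies inside the RefSeq span of Pigz, a gene of glycolipid anchor synthesis, and had 459 and 88 reads, -2.38 (-2.76 to -2.08). Ensembl Pigz, 1.13 kb from it, had 33 and 26 reads, -0.35 (-1.17 to 0.42). Pigz was chosen for its RefSeq span after its values were seen. The nearest gene, AC124681.1, had 1 read in each library, and that pair did not pass the test of a difference (-2.38, -5.66 to 0.91). Locus 707 (chrX:9328979-9332645, minus strand) had 536 and 116 reads, -2.22 (-2.54 to -1.94).

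Among called loci with at least 100 reads in 1 library, the 8 highest ratios ran from 2.05 to 3.14. Over all tested loci the highest ratio was 4.45, that of locus 256 with 0 WT reads and 42 Exon2KO reads. Locus 75 (chr10:44959896-44993810, minus strand) had 28 WT reads and 267 Exon2KO reads, with a log2 ratio of 3.14 (2.66 to 3.84). Locus 610 (chr7:58453156-58455511, minus strand) had 25 and 197 reads, 2.86 (2.35 to 3.61), and its nearest gene had 0 reads. Locus 115 (chr11:109780830-109782711, plus strand) had 14 and 107 reads, 2.74 (2.10 to 3.83), beside 1700012B07Rik with 63 and 235 reads. That neighbour passed 2-fold as well.

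Locus 379 (chr2:131528248-131530541, plus strand), 2.33 kb beyond the end of the spermine oxidase gene Smox and on its strand, had 40 and 234 reads, a log2 ratio of 2.46 (2.03 to 3.04), where Smox had 1726 and 5919 reads, 1.75. Locus 484 (chr4:137859296-137860511, minus strand), upstream of the endothelin-converting enzyme gene Ece1, had 43 and 188 reads, 2.05 (1.62 to 2.61), where Ece1 had 1.29. Locus 578 (chr6:67418280-67420574, minus strand) lies 2.36 kb beyond the end of Il23r, the IL-23 receptor gene, on its strand. It had 40 and 233 reads, 2.46 (2.03 to 3.04), where Il23r, named after its values were seen because Gm44083 lies nearer, had 326 and 1172 reads, 1.81 (1.64 to 2.00). Gm44083, 228 bases from the locus, had 2 and 33 reads, 3.11. The ratio of ratios of locus 578 against it was -1.22 (-3.13 to 0.70), and that pair did not differ. Of the remaining loci of the 8, locus 44 (chr1:161589655-161704711) had 50 and 283 reads, 2.43, and locus 222 (chr14:121395043-121405274) had 32 and 148 reads, 2.12.

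A list of Treg, Gata3-type, type 17, epithelial and antigen receptor genes was nearest to 11 tested loci, of which 5 were called: loci 9, 37, 165 and 631 were higher and locus 559 lower. Over all tested added loci 30.1% were called and over all loci with at least 10 reads 13.8%, and nothing is read from this small count. Locus 37 (chr1:131026204-131039589, minus strand), 1.23 kb beyond the end of Il10, the gene of an anti-inflammatory cytokine, on the opposite strand, had 103 WT reads and 372 Exon2KO reads, with a log2 ratio of 1.81 (1.51 to 2.16). Il10 had 14174 and 39614 reads, 1.46 (1.43 to 1.48), and the pair did not differ by 2-fold. Locus 631 (chr8:115679661-115682149, plus strand), 0.79 kb beyond the end of the transcription factor gene Maf, had 62 and 194 reads, 1.59 (1.20 to 2.06), where Maf had 2336 and 4853 reads, 1.03. Locus 165 (chr12:35484608-35487142, minus strand), 10.8 kb beyond the end of the ligand-activated factor gene Ahr, had 2 and 29 reads, 2.94 (1.85 to 6.94), where Ahr had 329 and 467 reads, 0.48. Il10 and Maf were themselves called higher and Ahr was not, and of these 3 pairs only that of Ahr passed the test of a difference.

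Locus 559 (chr6:122258346-122263358, plus strand) lies 7.24 kb beyond the end of Klrg1, an inhibitory receptor gene, on the opposite strand. It had 63 reads in WT and 0 in Exon2KO, at least 21.4-fold lower against a floor of 3 reads, and Klrg1 had 6483 and 778 reads, a log2 ratio of -3.08. That pair passed the test of a difference, with a counting interval of the ratio of ratios from -7.95 to 0.09. Locus 4, which overlaps the start of the RefSeq span of Il1rl1 by 4435 bases and ends 20.3 kb upstream of its Ensembl start, had 11 reads in each library where Il1rl1 had 5655 and 676, -3.09. The ratio of ratios was 3.06 (1.88 to 4.25). Locus 501 (chr5:91138630-91139434), 164 bases upstream of Areg, the amphiregulin gene, had 33 and 44 reads, 0.37, where Areg had -0.78. Locus 387, beyond the end of the IL-2 receptor gene Il2ra, had 124 and 98 reads, -0.36, beside -0.35 for Il2ra. Locus 438, beyond the end of the repressor gene Bach2, had 240 and 348 reads, 0.51, beside 0.52. Locus 208, upstream of the T cell receptor segment Trav9-4, had 39 and 42 reads, 0.08, beside -1.26.

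Over all pairs, somewhat more added loci shared the direction of their nearest gene than opposed it. Of the 563 loci whose nearest gene had reads, 333 (59.1%) had the same direction as the gene. Among Ensembl genes, 54.0% shared the direction of their own nearest gene. The pairs of added loci share both libraries, and some share a gene, so no interval is given and these shares were not compared by a test. Across these pairs Spearman's rho of the 2 log2 ratios was 0.33, as a description over pairs that share both libraries, and over the Ensembl pairs it was 0.14. Under another pairing, with the nearest gene of at least 10 reads (626 pairs), 28 of the 126 loci called higher (22.2%) had a gene called higher and 3 a gene called lower. Of the 63 called lower under that pairing, 19 (30.2%) had a gene called lower and 2 a gene called higher. Of the 437 loci not called, 19 (4.35%) had a gene called higher and 15 (3.43%) a gene called lower, and these shares were not compared by a test.

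The shares by position were as follows. For the 154 pairs within 5 kb upstream on the same strand, where loci lie a median of 182.5 bases from the gene, rho was 0.09 and 50.6% shared the direction. For the 80 pairs upstream on the opposite strand, as in divergent transcription, rho was 0.51 and 66.3% shared it. Downstream pairs had rho values of 0.29 on the same strand (51 pairs) and 0.41 on the opposite strand (76 pairs). The 202 pairs beyond 5 kb had a rho of 0.38. These classes rest on the strand assigned to each locus, which was not tested. Of the added loci within 5 kb upstream, 82.8% on the same strand and 70.1% on the opposite strand were single blocks. Single-block loci 18 and 36 have the same coordinates on opposite strands. The differences between these classes were not tested.

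**Figure D3:**
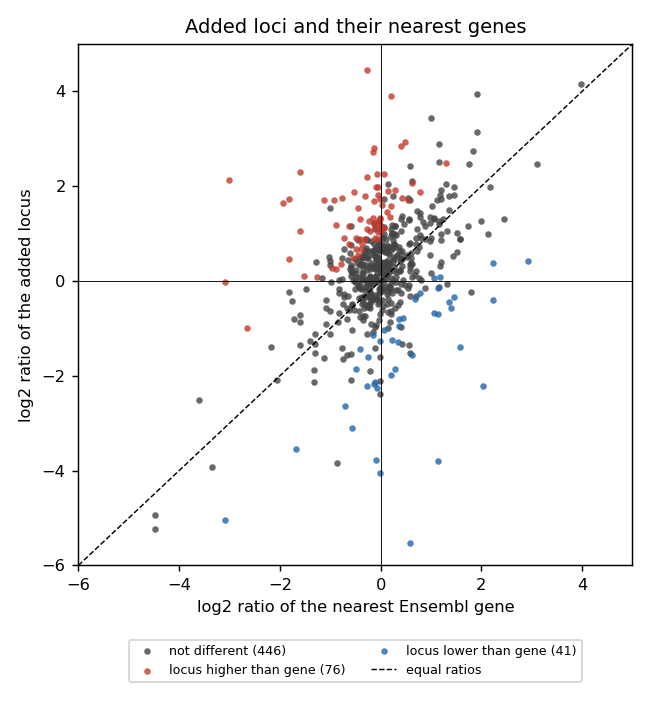
Log2 ratio (Exon2KO over WT) of each added locus, vertical axis, against that of its nearest Ensembl gene, horizontal axis, for 563 pairs. Red marks the 76 loci above their gene and blue the 41 below it by the exact test of the pair, and the dashed line marks equal ratios.

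Against its nearest gene, a locus differed in 117 pairs. In 76 pairs (13.5%) the locus had the higher ratio, and in 41 (7.28%) the lower, where 6.4% and 6.33% of Ensembl genes were above and below their own nearest gene by the same rule. That rule asks for an adjusted p below 0.05 in Fisher's exact test of the reads of the pair and a 2-fold ratio of ratios, and it does not depend on library scaling. The median ratio of ratios was 0.30.

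Locus 590 (chr7:19931102-19934048, plus strand), beside the immunoglobulin superfamily gene Igsf23, had 64 reads in WT and 207 in Exon2KO, where Igsf23 had 81 and 20. The locus rose and the gene fell, with a ratio of ratios of 3.68 (2.87 to 4.48). Locus 422 (chr3:87824930-87832325, minus strand), 623 bases upstream of the receptor gene Pear1 on its strand, had 117 and 273 reads where Pear1 had 756 and 415, a ratio of ratios of 2.08 (1.73 to 2.44). Locus 76 (chr10:45065916-45067124, minus strand), which begins 78 bases from the prolyl endopeptidase gene Prep on the opposite strand, had 37 and 87 reads where Prep had 569 and 376, 1.82 (1.24 to 2.40). Locus 66 and locus 463 complete the 5 highest among differing pairs with at least 100 reads in the locus, each beside a gene with at most 15 reads in a library. Loci with fewer reads were not ranked, such as locus 33 with 0 and 12 reads and a ratio of ratios of 4.75. Among the 5 lowest by the same read limit, after locus 520, loci 335, 523, 364 and 574 lay beside genes with at most 23 reads in a library. The precision of those pairs is thus set by the gene.

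Added loci also lay in runs along the chromosome, and in some runs the ratio of every tested member was above 0. Chaining loci no more than 50 kb apart gave 15 runs of at least 4 loci, a grouping made after the values were seen. A run of 7 loci flanks Ctla4 and ends 7.86 kb before the Ensembl start of Icos, the genes of an inhibitory and a costimulatory receptor of Treg cells. Its reads summed to 693 for WT and 1696 for Exon2KO, with a log2 ratio of 1.26 (1.14 to 1.39), and all 5 tested members were above 0, 4 of them called higher. The other 2, loci 8 and 27, overlap each other on opposite strands and had 0 reads. Over all tested added loci 63.6% were above 0 and 20.1% were called higher, and over all loci tested 50.3% and 7.2%.

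Within this run, locus 26 (chr1:60858860-60860588) had 19 and 52 reads, a log2 ratio of 1.34 (0.64 to 2.27). Locus 6 (chr1:60873497-60875551), 11.4 kb upstream of Ctla4, had 64 and 164 reads, 1.304 (0.91 to 1.77). Locus 7 (chr1:60919653-60931896), 3.82 kb beyond the end of Ctla4, had 403 and 768 reads, 0.90 (0.73 to 1.08), short of the 2-fold threshold. Nearest to Icos were locus 28 (chr1:60953597-60961159), with 166 and 567 reads, 1.73 (1.49 to 2.00), and locus 9 (chr1:60967026-60970067), with 41 and 145 reads, 1.75 (1.29 to 2.33). Ctla4 itself had 79358 and 132229 reads, 0.71, and Icos 41004 and 56225 reads, 0.43. The ratio of ratios against Icos was 1.31 (1.06 to 1.56) for locus 28 and 1.35 (0.86 to 1.85) for locus 9, while locus 7 was 0.19 (0.02 to 0.37) above Ctla4. RefSeq draws Icos longer than Ensembl does, so that all 3042 bases of locus 9 and 387 bases of locus 28 lie in its RefSeq span. Icos is not the nearest Ensembl gene of locus 28: against Gm11582, 5.13 kb away with 40 and 96 reads, its ratio of ratios was 0.52 (-0.07 to 1.10) and did not differ. Loci 6 and 26 likewise did not differ from their nearest gene, Gm38137, which had 47 and 102 reads.

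**Figure D4:**
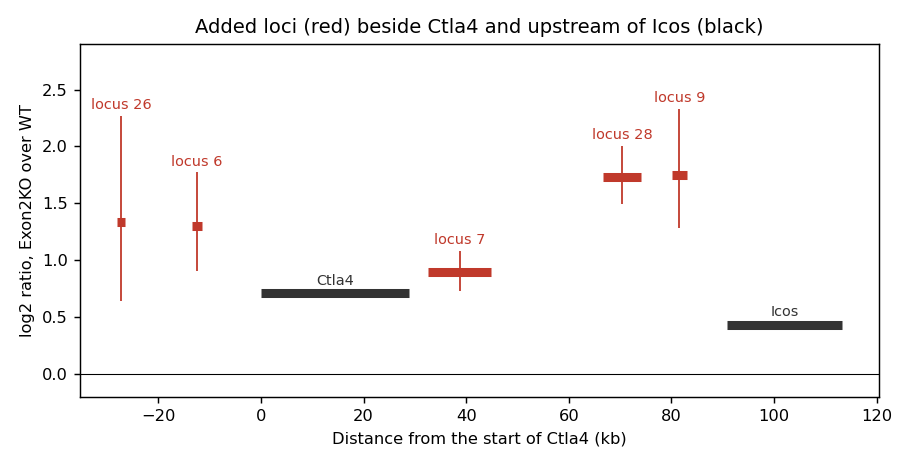
Log2 ratio (Exon2KO over WT) of the 5 tested added loci that flank Ctla4 and lie upstream of Icos (red) and of both genes (black), against distance from the start of Ctla4 in kb, with horizontal bars for the extent of each locus and vertical lines for 95% counting intervals. All 5 loci lie above 0, and loci 28 and 9, at 1.73 and 1.75, lie above Icos at 0.43.

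A second run follows Btg1, an antiproliferative gene, on its strand. Loci 63, 64, 65 and 66 lie 3.24, 22.3, 29.7 and 70.6 kb beyond its end. All 4 were called higher, beside 20.1% of all tested added loci and 7.2% of all loci tested, in a run grouped after the values were seen. Locus 63 (chr10:96626053-96637275) had 327 WT reads and 712 Exon2KO reads, with a log2 ratio of 1.09 (0.90 to 1.29). Locus 64 (chr10:96645146-96647388) had 64 and 221 reads, 1.73 (1.35 to 2.19). Locus 65 had 103 and 242 reads, 1.19, and locus 66 had 28 and 99 reads, 1.73. Btg1 itself was level at 32585 and 32825 reads, -0.02 (-0.04 to 0.01). The run also holds locus 83, with 0 reads, and another gene beside it, Gm33843, had 1 WT read and 27 Exon2KO reads.

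Over all tested loci, 119 lie downstream of a nearest gene that has at least 1000 reads over both libraries and was not called, a tally made after the values were seen. Of these, 25 were called higher (21.01%), 4 lower and 90 neither, beside 20.1% of all tested added loci called higher. On the gene's strand, 18 of 64 were higher and 1 was lower, and on the opposite strand 7 of 55 were higher and 3 lower. The examples that follow were named after their values were seen, and the gene is not in each case the nearest. Loci 427 and 426, 3.45 and 10.7 kb beyond the end of the tetraspanin gene Cd53 and on its strand, had 501 and 1053 reads (1.04) and 362 and 951 reads (1.36), where Cd53 had 33905 and 34724 reads, 0.01. The authors describe both with domains of L1 or reverse transcriptase. Loci 191 and 193, 3.57 and 30.0 kb beyond the end of embigin (Emb), a cell surface glycoprotein gene, had 294 and 673 reads (1.163) and 83 and 191 reads (1.157), where Emb had 0.28. Locus 192, which covers 93.1% of locus 191 on the same strand, had 351 and 605 reads (0.76) and was not called. Locus 196, 10.02 kb beyond the end of the transcription factor gene Nfil3, had 231 and 603 reads (1.35), where Nfil3 had 0.65. Locus 672, beyond the end of the chemokine receptor gene Ccr4 on the opposite strand, had 137 and 348 reads (1.31), where Ccr4 had 0.57. Of the 15 runs, 7 had every tested member above 0, 7 were mixed and 1 had none above 0. Over all tested added loci 63.6% were above 0 and 10.05% were called lower. Some runs had few tested members, runs of Ensembl loci were not tallied, and nothing is read from these counts. The 6 tested loci of a run beside Ccr7, a lymph node homing receptor gene, ranged from -0.35 to 0.90 with none called, and summed to 455 WT reads and 605 Exon2KO reads, 0.38 (0.21 to 0.56). In a run of 4 loci beside Mxi1, a MAX-interacting repressor gene on chromosome 19, neither of the 2 tested loci was above 0 and 1 was called lower. That run summed to 354 WT reads and 246 Exon2KO reads, -0.55 (-0.79 to -0.31).

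**Figure D5:**
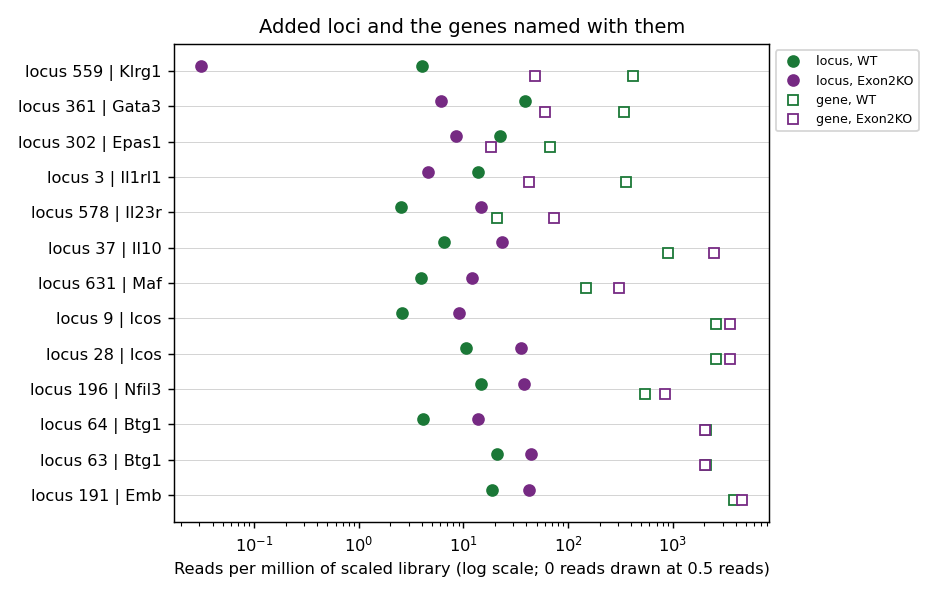
Level in CPM of the scaled library (log scale) of 13 added loci, picked after their values were seen (filled circles), and of the gene named with each (open squares), in WT (green) and Exon2KO (purple), with 0 reads drawn at 0.5 reads. The loci of the top 4 lines, named with Klrg1, Gata3 (881 kb away), Epas1 and Il1rl1, are lower in Exon2KO, and the other 9 are higher, where the 2 squares of Btg1 nearly coincide.

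Locus 302 and locus 3, called lower, lie on the same chromosomes as Epas1 and Il1rl1, which were also lower. These genes are not their nearest genes and were named after their values were seen. Locus 302 (chr17:86842846-86850570, minus strand), 9.44 kb beyond the end of the hypoxia factor gene Epas1 on the opposite strand, had 351 WT reads and 135 Exon2KO reads, with a log2 ratio of -1.39 (-1.70 to -1.11), where Epas1 had 1056 and 290 reads, -1.88, and the nearest gene, Gm29168, had 7 and 0 reads. Locus 3 (chr1:40380093-40383916, plus strand), 45.7 kb upstream of Il1rl1, had 215 and 73 reads, -1.56 (-1.99 to -1.20), a smaller drop than that of Il1rl1 by 1.51 (1.11 to 1.91). Its nearest gene, Il1rl2, 12.5 kb away, had 12 and 7 reads, and locus 4, which lies between locus 3 and Il1rl1, had 11 reads in each library.

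Some tested loci had reads in 1 library only: 11 had 0 reads in Exon2KO and 9 had 0 in WT. The matching share of all loci is not given here, so nothing about the added loci as a class is read from these counts. Locus 553 had 97 reads in WT and 0 in Exon2KO, at least 32.9-fold lower, and it lies wholly inside locus 552 on the same strand, which had 23 reads in Exon2KO. Locus 125 (chr11:23805054-23818974, minus strand), over the RefSeq Gm39612 whose promoter is printed above, had 90 and 0 reads, at least 30.6-fold lower. Rel, an NF-kappaB subunit gene 34.1 kb away, had 6439 and 3402 reads, -0.95, a comparison chosen after its values were seen. Loci 32 and 10, beside Gm37930 at 42 and 0 reads, had 72 and 59 reads in WT and 0 in Exon2KO. In the other direction locus 15, beside the chemokine gene Ccl20, had 0 reads in WT and 34 in Exon2KO, at least 11.1-fold higher, and Ccl20 had 1031 and 16679 reads.

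Protein domain descriptions in the authors' table covered 59 added loci. Of 21 loci with L1 or reverse transcriptase domains, all tested, 4 were higher and 2 lower, with a median log2 ratio of 0.29. Of 16 with retroviral gag, pol or env domains, 10 were tested, none was higher and 2 were lower, with a median of -0.12. All 5 loci with KRAB or zinc finger domains were tested and none was called, with a median of -0.03. The 577 tested loci without a domain description had a median of 0.30, with 118 higher and 58 lower. The share called was 28.6% for L1 or reverse transcriptase (6 of 21) and 30.5% without a description, beside 30.1% of all tested added loci and 13.8% of all loci tested.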

How the data were processed

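RNA was sequenced from 1 WT and 1 Exon2KO Treg library, prepared with a NEBNext Ultra kit from 1 µg of RNA, per the labels. The submitters' processing notes name HISAT2 2.0.5, StringTie 1.3.3b, featureCounts 1.5.0-p3 and DESeq2 1.16.1 and the build mm10, with no role given. The authors deposited raw read counts per locus, which all results use, with coordinates, lengths and FPKM values (reads scaled to length and library size). The authors also deposited a scaled count signal and, per locus, a log2 fold change with p-values, whose tool is not given in the sources used here. Of the Ensembl loci, 54495 were found in GENCODE M21 and 98.3% of them had identical coordinates, so positions are GRCm38.

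Library sizes were scaled with TMM (edgeR 4.0.16, R 4.3.3). With 1 library per genotype no test of genotypes exists. Loci with at least 10 reads over both libraries, 17363 in all, entered a 2-sided exact binomial test of reads (scipy 1.17.1) with Benjamini-Hochberg adjustment, which compares these libraries. A call needed an adjusted p below 0.05 and a 2-fold ratio. Log2 ratios carry a prior count of 2, with Clopper-Pearson 95% intervals. The nearest gene is the Ensembl locus with the smallest gap on either strand, and pairs were compared by Fisher's exact test, adjusted over 563 pairs, with 0.5 added to each count in the ratio of ratios. The procedures were tested on simulated counts without spread between samples, so that check says nothing about calls where such spread exists.

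Loci were named by rule: the 10 with the most reads, the 8 highest and 8 lowest called with at least 100 reads in 1 library, the 5 pairs furthest above and the 5 furthest below among differing pairs with at least 100 reads in the locus, and tested loci nearest to a list gene. Others are said to be chosen after their values were seen. The members and lists were chosen with earlier results of these data known. Promoter windows come from RefSeq, GRCm38.p6. Alternatives were other scalings, read minimums, fold thresholds, assumed spreads, prior counts and gene pairings.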

Additional observations from a re-analysis of the deposited data

How the results depend on the processing

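With at least 50 reads, 82 added loci were called higher and 39 lower, since fewer loci were tested. A 4-fold threshold left 31 higher and 30 lower. An edgeR exact test with an assumed BCV of 0.2 called 52 added loci higher and 35 lower, and with 0.4 it called 5 and 12. The shares of all loci at these spreads are not given here. Thus the counts, and at the larger assumed spread also the excess of higher over lower calls, depend on the spread between samples, which these data do not give. DESeq2 size factors gave 131 higher and 60 lower, total counts 143 and 59, and no read filter 126 and 61. The median log2 ratio of the added loci stayed between 0.29 and 0.39 over the other scalings and filters, and total counts moved the median of all loci from 0.0035 to 0.11. Without locus 289 the added loci took 0.362% of WT reads and 0.465% of Exon2KO reads. A window of 2 kb held 270 loci in place of 417. Pairing with the nearest gene on the same strand gave 103 differing pairs, and asking for a nearest gene with at least 10 reads gave 153, against 117. Under total counts, the log2 ratio of locus 4, with 11 reads in each library, went from -0.02 to 0.067, and that of locus 7 reached 1.01 and a call. The other 44 named loci kept direction and call under total counts, and all 46 did under DESeq2 size factors and under a prior count of 0.5. No paired analysis was possible because each genotype has 1 library, and no library could be left out for the same reason.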

Other observations

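Locus 713 (chrY:90737374-90740650, plus strand) had 598 WT reads and 888 Exon2KO reads, with a log2 ratio of 0.54 (0.39 to 0.70), in libraries labelled female. It lies 12.4 kb from Mid1-ps1. It was named after its values were seen, and whether its reads come from a copy elsewhere in the genome was not tested.

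A run of 4 added loci beside Hspa8, the gene of a constitutive heat shock protein, had 440 WT reads and 641 Exon2KO reads, with a log2 ratio of 0.51 (0.34 to 0.69), with all 4 above 0 and 1 called. Over all tested added loci 63.6% were above 0 and 30.1% were called, and over all loci tested 50.3% and 13.8%. Hspa8 itself had 51990 and 32073 reads, -0.72. A run of 4 loci beside Tmem64 had 194 and 373 reads, 0.91 (0.66 to 1.17), where Tmem64 had 0.02.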
